A study of Mus musculus with 4 samples.

Results

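The *Reg* (regenerating islet-derived) family lectins were followed across 4 microarrays of mouse colon. The rule took every array feature, other than control spots, whose gene name was *Reg1*, *Reg2*, *Reg3a*, *Reg3b*, *Reg3d*, *Reg3g* or *Reg4*. It found 7 genes, each with 1 feature and 1 spot, among 43020 such spots per array, of which those matched by name covered 22350 genes. The family was selected on signals of these same arrays, so that its ratios are given as a description and carry no test.

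Each array held colon RNA pooled within 1 group of male mice, 42 weeks old, of the B6.129 (n3) background, a mixture of C57BL/6 and 129 genomes at backcross generation 3. The groups were *Pla2g3*+/+ given vehicle (saline), *Pla2g3*-/- given vehicle, *Pla2g3*+/+ given azoxymethane (AOM) and *Pla2g3*-/- given AOM. *Pla2g3* encodes the secreted phospholipase A2 sPLA2-III. AOM, a carcinogen that induces colon tumors in rodents, was given weekly at 10 mg/kg over 6 weeks, and the animals were killed 28 weeks later. A pool held 3 to 5 mice, and the samples of the AOM groups are described as cancer tissue. Since no group had a second array, no ratio could be checked against replicates and none has a p-value. In pooled tissue, fewer cells of a type and less RNA per cell cannot be told apart.

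Reg proteins are small secreted lectins with a C-type lectin fold. Reg3b and Reg3g are antibacterial lectins of the gut epithelium that keep bacteria away from the mucosal surface, and interleukin-22 (IL-22), acting through STAT3, is a known inducer of both. Reg1 and Reg2 are abundant products of the exocrine pancreas, where Reg3b is also known as pancreatitis-associated protein. Reg4 marks secretory cells of the colon crypt, and EXTL3, a glycosyltransferase, has been proposed as a receptor of Reg proteins.

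The features of 6 members lay side by side on chromosome 6, in the order *Reg3b*, *Reg3d*, *Reg3a*, *Reg2*, *Reg1* and *Reg3g*, within 93157 bases of mm9. *Reg4* lay apart on chromosome 3. Because the genes are related, what each feature could bind bears on every value. The opening 30 of the 60 designed bases are shown for the members whose ratios were the largest, in lower case and 5′ to 3′.
Reg3b (chr6:78323323-78323382): gtgaagactcacctagaaaaagcattttct
Reg3g (chr6:78416420-78416479): gagtacagaattgacatcatgggttgatat
Reg1 (chr6:78378527-78378586): ggaccatctatcaaaagcaaattagatcct
Reg2 (chr6:78357959-78358018): acagtactcctttgtctgcaagttcagagc
Reg4 (chr3:98037005-98040251): gcattgcgctgagatgaaccccaaggataa
The *Reg4* feature spans 3247 bases of the genome, so that its 60 bases are split there. Among the 21 pairs of full member sequences, the longest shared run was 7 bases and at most 26 of 60 bases matched. No other feature of the array shared 20 bases in a row with a member. *Reg3d*, *Reg3a* and the other members therefore had features of distinct sequence. Features were compared only with each other and not with the transcripts of the other members. Whether a feature could bind the RNA of another member was thus not tested, and binding itself was not measured. Whether a feature lies in coding or untranslated sequence was not analysed here.

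The 250 bases upstream of the start of *Reg3b*, *Reg3g*, *Reg1* and *Reg2* are shown from RefSeq. The build is GRCm38.p6, later than that of the features. *Reg3b* and *Reg3g* had the most alike profiles among the members detected on all 4 arrays. Capitals mark TATAAA, searched on the transcript strand, and TTCNNNGAA, the palindrome bound by STAT factors, searched on both strands.
Reg3b (chr6:78370635-78370884, plus strand): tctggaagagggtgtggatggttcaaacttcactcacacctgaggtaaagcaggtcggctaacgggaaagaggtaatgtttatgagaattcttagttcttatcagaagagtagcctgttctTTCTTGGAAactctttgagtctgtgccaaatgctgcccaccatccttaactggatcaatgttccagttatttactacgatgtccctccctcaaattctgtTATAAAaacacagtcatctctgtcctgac
Reg3g (chr6:78468875-78469124, minus strand): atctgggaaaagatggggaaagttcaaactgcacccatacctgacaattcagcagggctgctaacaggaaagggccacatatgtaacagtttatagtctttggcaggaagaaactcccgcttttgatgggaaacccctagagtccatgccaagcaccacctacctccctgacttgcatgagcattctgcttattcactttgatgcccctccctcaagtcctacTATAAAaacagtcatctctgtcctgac
Reg1 (chr6:78425733-78425982, plus strand): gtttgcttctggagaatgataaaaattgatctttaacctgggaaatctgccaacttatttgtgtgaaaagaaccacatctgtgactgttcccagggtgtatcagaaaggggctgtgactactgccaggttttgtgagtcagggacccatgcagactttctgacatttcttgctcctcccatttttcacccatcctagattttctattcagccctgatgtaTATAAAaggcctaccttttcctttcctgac
Reg2 (chr6:78404905-78405154, plus strand): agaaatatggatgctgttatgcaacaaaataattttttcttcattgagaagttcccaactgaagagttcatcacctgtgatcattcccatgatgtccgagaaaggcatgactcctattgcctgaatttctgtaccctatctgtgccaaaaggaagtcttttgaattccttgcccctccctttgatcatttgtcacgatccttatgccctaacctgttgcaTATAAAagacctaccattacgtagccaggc
All 7 members had a promoter in the table. When aligned, *Reg3b* and *Reg3g* were identical at 69.2% of these bases and *Reg1* and *Reg2* at 62.4%, whereas the other 19 pairs were identical at 51.6% to 59.6%. TATAAA stood in 4 of the 7 member promoters, those shown, and in 7.59% of all 32851. TTCNNNGAA stood in 2 members, *Reg3b* and *Reg3d*, and in 7.02% of all promoters. TGGGAA on either strand, the core bound by RBPJ, stood in 5 members, *Reg1*, *Reg2*, *Reg3a*, *Reg3d* and *Reg3g*, and in 21.6% of all. In *Reg3d* 1 match of TGGGAA lies inside TTCNNNGAA. These are matches of letters in a short window and not sites.

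Signals are the background-subtracted intensities of the scanner software, and a relative signal is that signal in units of the 75th percentile over all spots of the same array. That percentile was 646 and 649.8 on the vehicle arrays of *Pla2g3*+/+ and *Pla2g3*-/-, and 1309 and 1169 on the AOM arrays. A ratio is one relative signal over another, and a change counted when it was over 2-fold, the threshold that the study marked. A feature that the scanner software did not call well above background was taken at the dimmest detected signal of its array, or at its own signal if higher. A ratio against the former is written as "at least", which holds under this setting only. One against the latter is named as a ratio with its own dim signal. A member dim on both arrays has no ratio. Between 64.8% and 69.4% of spots were well above background and none was saturated. The error given by the software for member signals that were well above background was 10.0% to 14.0%, an error of the measurement that leaves out the spread between mice. *Pla2g3* itself, by the brightest of 3 features, gave with vehicle 343 in the +/+ pool against 426 in the pool labelled -/-, and after AOM 304 against 1632. Its signal was thus higher in both pools labelled *Pla2g3*-/-, and every direction below rests on those labels. Which part of the gene was deleted is not given in the sources used here, so that a feature outside it would check nothing. Colonocyte markers were well above background on every array (11 of 11 listed genes).

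With vehicle, *Reg3b*, *Reg3g*, *Reg1* and *Reg2* were higher in the pool labelled *Pla2g3*-/- than in *Pla2g3*+/+, and *Reg3a*, *Reg3d* and *Reg4* stayed within 2-fold. After AOM the antibacterial pair was lower in the pool labelled *Pla2g3*-/-, *Reg4* was higher, and *Reg1*, *Reg2* and *Reg3a* were not well above background in either genotype. AOM over vehicle gave no member a rise past 2-fold in either genotype. The plot of relative signals by array shows the 7 profiles.

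**Figure D1:**
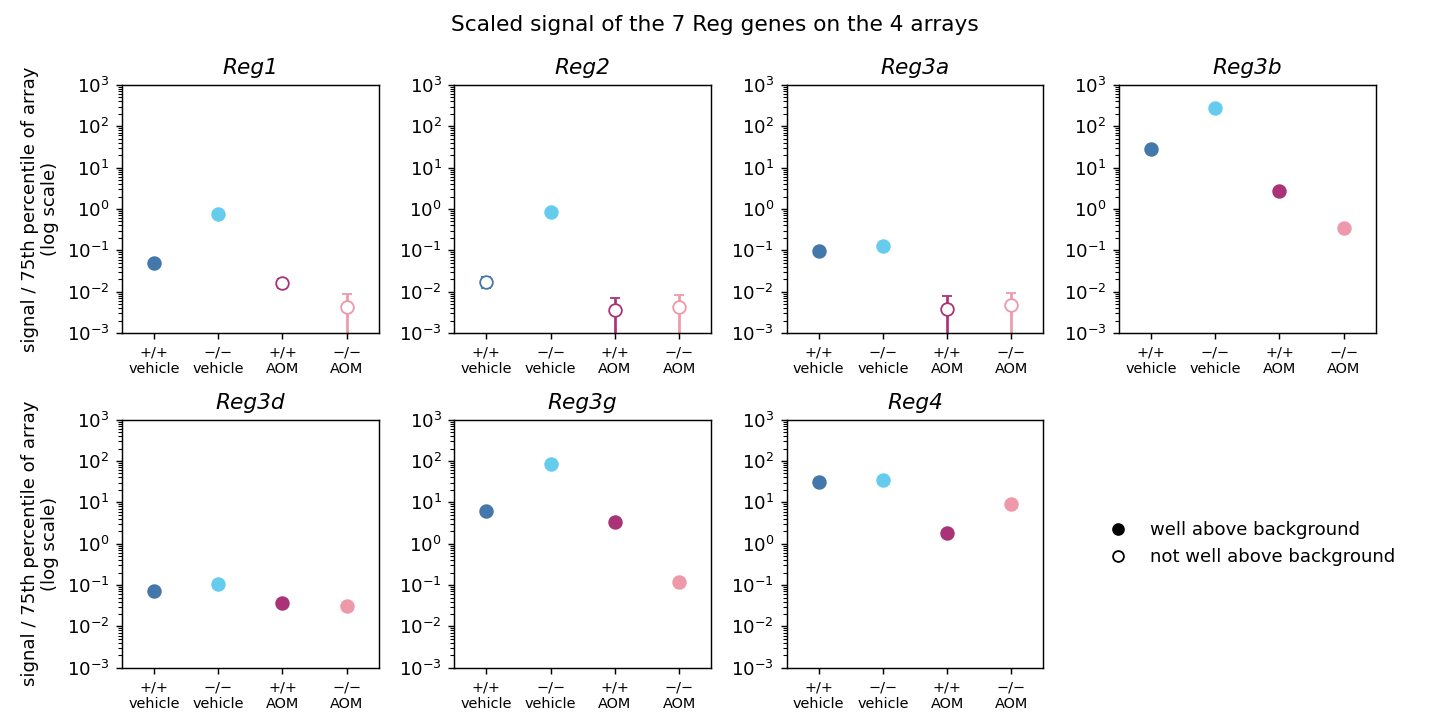
Relative signal (signal over the 75th percentile of its array, log axis) of each member on the 4 arrays, 1 point per array, with error bars from the scanner software that are cut at the edge of the panel or hidden by the point where small. Reg3b and Reg3g peak on the array of Pla2g3-/- with vehicle and are lowest on that of Pla2g3-/- after AOM, whereas Reg4 is lowest on that of Pla2g3+/+ after AOM.

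*Reg3b*, the antibacterial lectin and pancreatitis-associated protein, had signals in vehicle-treated colon of 18635 (*Pla2g3*+/+) and 182794 (*Pla2g3*-/-), and in AOM-treated colon of 3642 and 406. Its relative signals were 28.9 and 281 with vehicle and 2.78 and 0.347 after AOM. The highest and the lowest value thus both came from pools labelled *Pla2g3*-/-. With vehicle it was 9.75-fold higher in that genotype (log2 ratio 3.28, array error 0.20), and after AOM it was 8.02-fold lower (log2 ratio -3.00, array error 0.20). It was 10.4-fold lower after AOM than with vehicle in *Pla2g3*+/+ and 810-fold lower in *Pla2g3*-/-. The last, a log2 ratio of -9.66, was the largest of all falls among 24075 features well above background on both arrays of that comparison, and it was -8.68 after normexp background correction. Normexp values here and below also include quantile normalization.

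*Reg3g*, which kills Gram-positive bacteria, had signals in vehicle-treated colon of 3969.5 (*Pla2g3*+/+) and 54909 (*Pla2g3*-/-), and in AOM-treated colon of 4488 and 135. The relative signals were 6.15 and 84.5 with vehicle and 3.43 and 0.116 after AOM. *Reg3g* followed the order of *Reg3b*, but its values in *Pla2g3*+/+ lay much closer to each other. It was 13.7-fold higher in *Pla2g3*-/- with vehicle (log2 ratio 3.78, array error 0.20) and 29.6-fold lower after AOM (log2 ratio -4.89, array error 0.21). Relative to vehicle, AOM-treated colon was 729-fold lower in *Pla2g3*-/-, second among the 24075 features after *Reg3b*. On the log2 scale this was -9.51, and normexp background correction gave -7.82, as well as -3.84 for the genotype ratio after AOM. In *Pla2g3*+/+ the log2 ratio of AOM over vehicle was -0.84, within 2-fold, and without scaling of the arrays it was 0.18.

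*Reg1*, a product of pancreatic acinar cells, had signals of 32.7 and 479.7 in *Pla2g3*+/+ and *Pla2g3*-/- with vehicle, and of 21.1 and 5.06 after AOM. Both AOM values were not well above background. It was 14.6-fold higher in *Pla2g3*-/- with vehicle (log2 ratio 3.87, array error 0.25), and normexp background correction, which adds an offset of 50 to each signal, gave a log2 ratio of 2.35. AOM over vehicle was at least 50.4-fold lower in *Pla2g3*-/-. In *Pla2g3*+/+ it was 3.14-fold lower with its own dim signal after AOM, whose error was 24.3%. That ratio was within 2-fold without scaling or after normexp. For *Pla2g3*-/- the log2 ratio was -5.66, a common floor for all arrays after scaling gave -5.02, and normexp gave -2.63.

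*Reg2*, the closest relative of *Reg1* in the cluster, gave 11.3 and 565 with vehicle and 4.60 and 4.86 after AOM. Only the array of *Pla2g3*-/- with vehicle was well above background. There it was 49.7-fold higher than its own dim signal in *Pla2g3*+/+ with vehicle, whose error was 29.5% (log2 ratio 5.64). It was at least 59.4-fold higher than in *Pla2g3*-/- after AOM (log2 ratio of AOM over vehicle -5.89). A common floor for all arrays after scaling gave log2 ratios of 5.25 and -5.25. Normexp background correction, with its offset of 50, gave log2 ratios of 2.91 and -2.88 instead.

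*Reg3a*, a lectin of the same subfamily as *Reg3b*, gave 62.7 and 81.9 with vehicle, a log2 ratio of 0.38 with an array error of 0.23. After AOM it gave 5.06 and 5.52, both not well above background. It was present with vehicle in both genotypes and not detectable after AOM in either. AOM over vehicle was at least 7.73-fold lower in *Pla2g3*+/+ and at least 8.62-fold lower in *Pla2g3*-/-, both within 2-fold after normexp background correction.

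*Reg3d* gave 45.7 and 68.3 with vehicle and 48.4 and 37.5 after AOM, dim but well above background on all 4 arrays. Its log2 ratio of *Pla2g3*-/- over *Pla2g3*+/+ was 0.57 with vehicle (array error 0.23) and -0.20 after AOM (array error 0.27). The feature of *Reg3d* lies next to that of *Reg3b*, and its relative signals spanned 3.28-fold over the 4 arrays. AOM over vehicle was 3.28-fold lower in *Pla2g3*-/-, which was within 2-fold without scaling or after normexp. In *Pla2g3*+/+ the log2 ratio was -0.94, and it was 0.08 without scaling.

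*Reg4*, the member of chromosome 3 that marks crypt secretory cells, had signals of 20554.5 and 22434 with vehicle and of 2323 and 10916 after AOM. The relative signals were 31.8 and 34.5 with vehicle, and 1.77 and 9.34 after AOM. Its array of *Pla2g3*+/+ after AOM stood below the other 3, and the vehicle arrays were alike. *Pla2g3*-/- over *Pla2g3*+/+ was 1.08-fold with vehicle (log2 ratio 0.12, array error 0.20) and 5.26-fold after AOM (log2 ratio 2.40, array error 0.20). After AOM it was 17.9-fold lower than with vehicle in *Pla2g3*+/+ and 3.70-fold lower in *Pla2g3*-/-.

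**Figure D2:**
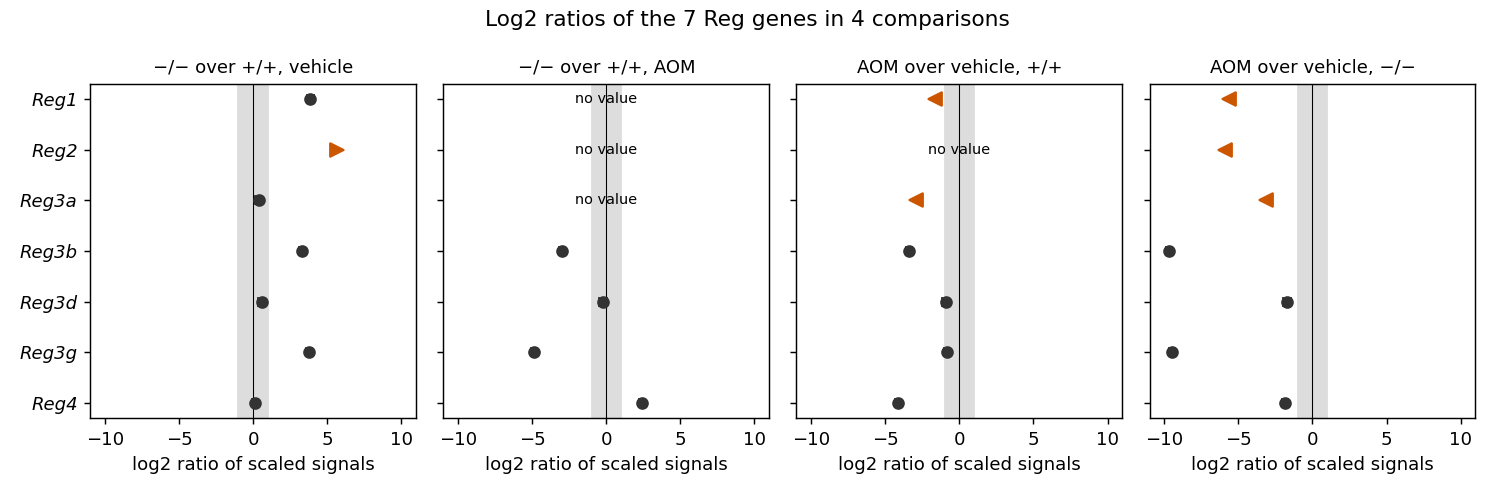
Log2 ratio of relative signals (x axis) of the 7 members in the 4 comparisons, with array error (bars, mostly hidden by the points) and the range within 2-fold in grey. Orange arrowheads are ratios with a dim signal. They mark the least size of the change only where the dimmest detected signal of the array stood in for it. AOM over vehicle was below 0 for all members with a value, and the genotype ratio of Reg3b and Reg3g lay above 1 with vehicle and below -1 after AOM.

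Counted over the family, 4 of 7 members were over 2-fold higher in *Pla2g3*-/- with vehicle and 0 lower, where 2.12% of all 26548 features with a ratio were higher and 1.53% lower. The members' median log2 ratio was 3.28, and that of all features was -0.04. After AOM, 1 of the 4 members with a ratio was higher and 2 were lower, where 14.1% of 28310 features were higher and 12.1% lower. AOM over vehicle was lower for 4 of 6 members in *Pla2g3*+/+ and for 7 of 7 in *Pla2g3*-/-. Among all features 14.9% were higher and 21.8% lower in *Pla2g3*+/+, and 11.2% higher and 15.6% lower in *Pla2g3*-/-. The split of all features in AOM over vehicle moves with the scaling. Without scaling 44.9% were higher and 6.23% lower in *Pla2g3*+/+, and 38.9% and 3.96% in *Pla2g3*-/-. In *Pla2g3*+/+, quantile normalization gave 17.1% and 16.6%, and normexp followed by quantile normalization gave 8.55% and 8.10%. The comparisons share arrays with each other, so that the high values of *Pla2g3*-/- with vehicle enter both the genotype ratio and the fall after AOM. Since the family was selected on these ratios, nothing is read from its counts against those of all features.

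The genotype ratio with vehicle and that after AOM come from separate arrays. *Reg3b* and *Reg3g* were over 2-fold higher in the first and over 2-fold lower in the second, as were 86 of the 25448 features with a ratio in both (0.338%). *Reg4* and *Reg3d* stayed within 2-fold in the first. No test of the difference between the treatments was possible.

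**Figure D3:**
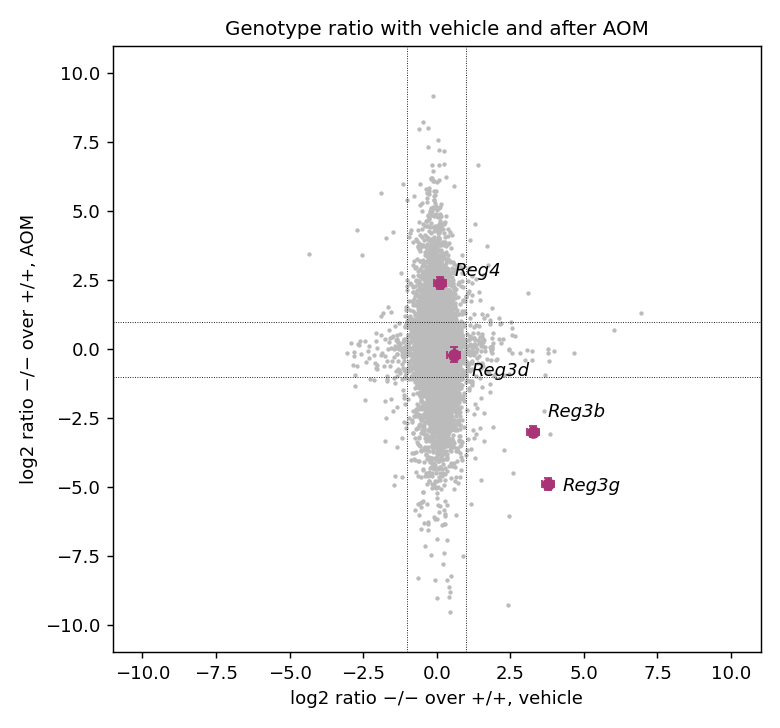
Log2 ratio of Pla2g3-/- over Pla2g3+/+ with vehicle (x axis) and after AOM (y axis) for the 23442 features well above background on all 4 arrays (grey), with the 4 such members in purple with array error, and dotted lines at 2-fold. Reg3b (3.28 and -3.00) and Reg3g (3.78 and -4.89) stand in the lower right, Reg4 (0.12 and 2.40) above the centre and Reg3d (0.57 and -0.20) near it.

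Profiles were also compared by the root mean square difference of log2 relative signals over the 4 arrays, after each feature was centred on its own mean. Only features well above background on all 4 arrays entered, so that *Reg1*, *Reg2* and *Reg3a* were not compared. Pancreatic acinar genes that were dim on any array, such as *Try5*, were left out too, and their likeness to a member was not measured. *Reg3b* and *Reg3g* differed by 0.96 on this measure, less than either did from any of the 22269 candidate features of other genes. For *Reg3b* the nearest of those were *Ang4* and *Ang3*, secreted ribonucleases of the angiogenin family (1.28 each), and *Prap1* (1.29). *Ang4* had signals of 84769 and 69293 with vehicle and of 6021 and 547 after AOM, so that it shared the fall after AOM but not the higher value of *Pla2g3*-/- with vehicle. For *Reg3g* they were *Gzma*, a protease of cytotoxic lymphocytes (1.41), *Nts*, the neuropeptide neurotensin (1.47), and a feature without a gene symbol (1.52). Profiles far closer than these were found for *Reg4*, namely *Capn9*, a calpain of the digestive tract (0.10), the transporter *Slc30a10* (0.12) and the transporter *Slc12a8* (0.13). *Reg3d* was nearest to *Pnp2* (0.05), *Eqtn* (0.06) and *Fyb2* (0.07). The likeness rests on 4 arrays and is a description.

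Only 3 other features lay within 1000000 bases of the cluster by the coordinates of the array files. The named one, *6330415B21Rik*, had log2 ratios of *Pla2g3*-/- over *Pla2g3*+/+ of -0.09 with vehicle and 0.19 after AOM.

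The proposed receptor and the inducing pathway were taken as lists beside the family. *Extl3* was within 2-fold in all 4 comparisons, with log2 ratios of *Pla2g3*-/- over *Pla2g3*+/+ of 0.16 with vehicle and -0.61 after AOM. Of the 23 genes of the IL-22 and IL-17 axis, 19 had a ratio with vehicle, of which 3 were higher in *Pla2g3*-/- and 0 lower (median log2 ratio -0.10). Of all genes 1.91% were higher and 1.32% lower, with a median of -0.02. The 3 were *Il22*, *Il17a* and *Socs3*. *Il22*, the inducer of *Reg3b* and *Reg3g*, gave 13.7 and 46.2, which is 3.35-fold, where the lowest signals well above background on these arrays were 10.7 and 14.8. *Il17a* was at least 2.33-fold higher. *Socs3*, a target of STAT3, gave 489 and 1160.2, which is 2.36-fold, and *Stat3* itself had a log2 ratio of 0.24. The receptor chains *Il22ra1* (-0.23) and *Il10rb* (-0.15) and the decoy receptor *Il22ra2* (-0.85) were within 2-fold. *Il6* was not well above background on either vehicle array.

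After AOM, 4 genes of this list were higher and 6 lower in *Pla2g3*-/- among 20 with a ratio (median log2 ratio -0.08). Of all genes 15.1% were higher and 12.9% lower in this comparison, with a median of 0.03. *Socs3* was 7.69-fold lower, with signals of 5682 and 659, so that it changed sides between the treatments as *Reg3b* and *Reg3g* did. *Il11* was 79.5-fold lower, *Il6* at least 18.5-fold lower and *Il17a* at least 3.56-fold lower. *Il22* was well above background only in *Pla2g3*+/+ (33.7), and its log2 ratio with its own dim signal of 17.9 in *Pla2g3*-/- was -0.75. *Il22ra1* was 4.50-fold higher. *Stat3* (-0.19) and *Il10rb* (0.56) were within 2-fold. In *Pla2g3*+/+, AOM over vehicle was 5.74-fold higher for *Socs3* and 55.8-fold higher for *Il1b*, while *Reg3b* was lower and *Reg3g* within 2-fold in that comparison.

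Of 18 listed defence genes of the epithelium, 0 were higher and 1 was lower in *Pla2g3*-/- with vehicle (median log2 ratio -0.08), where 1.91% of all genes were higher and 1.32% lower. The ratios ran from a log2 value of 0.88 for *Saa3*, an acute phase protein, to at least 2.88-fold lower for the chemokine *Cxcl1*. *Defa3*, a defensin counted here with the Paneth cell markers, was at least 7.91-fold higher. After AOM 4 were higher and 9 lower (median log2 ratio -1.01), from *Pigr*, the transporter of secretory antibodies, at 5.28-fold higher to *Saa3* at 180.5-fold lower. Among all genes, 15.1% were higher and 12.9% lower in that comparison. In *Pla2g3*+/+, AOM over vehicle was 196-fold higher for *S100a8* and 154-fold lower for *Retnlb*. Of 7 other gut lectins on the array 0 were higher and 1 lower with vehicle, *Lgals2* at 3.34-fold, and after AOM 1 was higher, *Zg16* at 8.39-fold, and 3 were lower, led by *Itln1* at 46.5-fold.

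Most markers of pancreatic acinar cells were higher in *Pla2g3*-/- with vehicle, as were *Reg1*, *Reg2*, *Reg3b* and *Reg3g*. *Reg3a*, *Reg3d* and *Reg4* were within 2-fold there. Of 24 listed genes with a ratio, 18 were higher and 1 was lower in *Pla2g3*-/- (median log2 ratio 2.72), where 1.91% of all genes were higher and 1.32% lower. The trypsinogen *Try5* was at least 222-fold higher, with a signal of 2393 in *Pla2g3*-/- and one not well above background in *Pla2g3*+/+, and the lipase *Pnliprp2* was 2.72-fold lower. In *Pla2g3*-/-, AOM over vehicle was lower for 20 of 24, as for all 7 *Reg* genes, where 15.1% of all genes were lower and 9.65% higher. After AOM 7 of 18 were higher and 3 lower in *Pla2g3*-/-, where 15.1% of all genes were higher and 12.9% lower. Of 25 on the array, 19 (*Pla2g3*+/+) and 24 (*Pla2g3*-/-) were well above background with vehicle, and 16 in each genotype after AOM. The summed relative signal of the list was 441 and 335 with vehicle and 37.8 and 241 after AOM. *Sycn* added most to it on the vehicle arrays of both genotypes. Its genotype ratio was within 2-fold with vehicle (log2 ratio -0.76) and 47.2-fold higher in *Pla2g3*-/- after AOM. A few bright genes set the sums, which do not follow the genes that were higher with vehicle. *Ptf1a*, the transcription factor that defines acinar cells, was not well above background on any array. *Bhlha15*, another gene of the list, was well above background on every array, with 300 and 259 with vehicle and 167 and 106 after AOM. Of 5 islet markers 2 were well above background on each array, and 0 passed 2-fold with vehicle. The part of pancreatic RNA in the values of *Reg1*, *Reg2*, *Reg3b* and *Reg3g* was not tested.

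**Figure D4:**
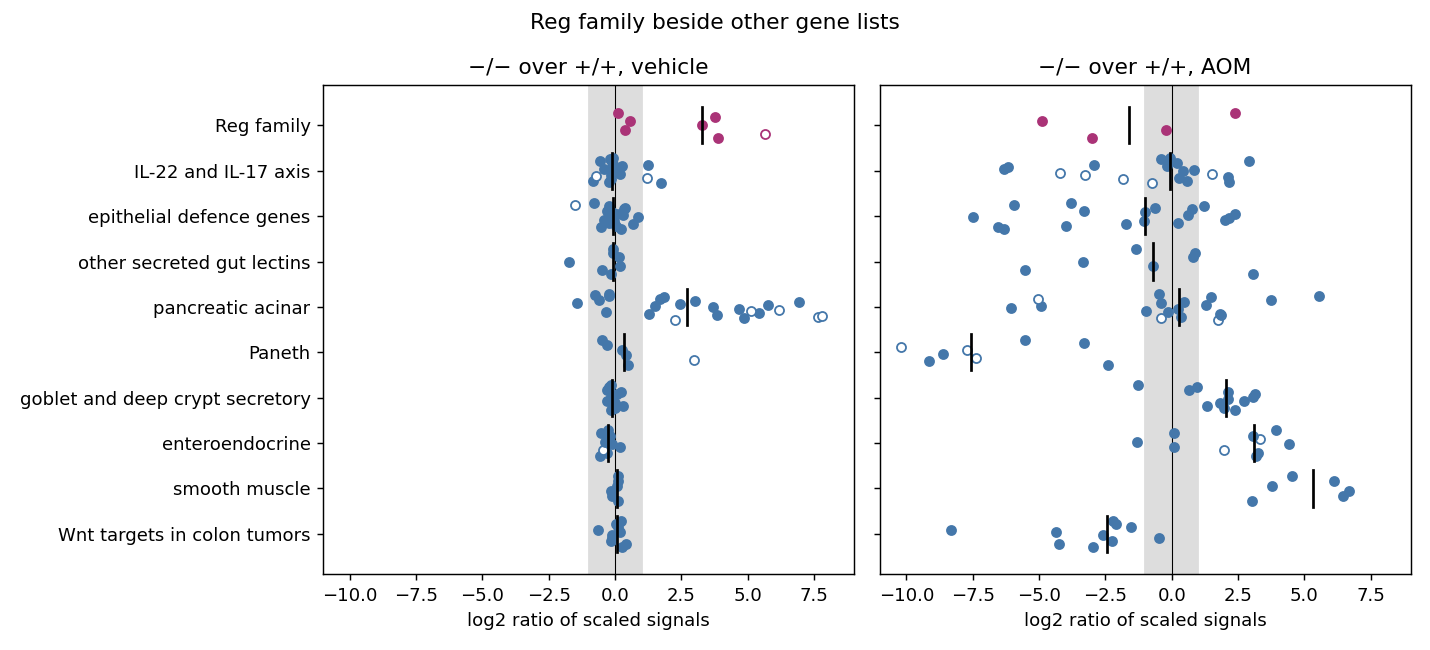
Log2 ratio of Pla2g3-/- over Pla2g3+/+ with vehicle (left) and after AOM (right) for the members (purple) and for the genes of 9 lists (blue, 1 feature per gene), with open points for ratios against a dim signal, vertical bars for the median and grey for the range within 2-fold. With vehicle the Reg family (median 3.28) and the acinar list (2.72) lie to the right of the other lists shown. After AOM Reg4 lies to the right of the grey range, as do the medians of the goblet (2.06), enteroendocrine (3.12) and smooth muscle (5.3) lists. Reg3b and Reg3g lie to its left, as do the medians of the defence (-1.01), Paneth (-7.55) and Wnt target (-2.42) lists.

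After AOM, markers of several cell types and of tumors differed between the genotypes, and these values stand beside every *Reg* ratio of AOM-treated colon, as do the 15.1% of all genes higher and 12.9% lower. Smooth muscle markers were higher in *Pla2g3*-/- for 6 of 6 genes, from *Acta2* at 8.10-fold to *Des* at 102-fold, with summed relative signals of 28.9 and 467. Wnt targets known from colon tumors were lower for 9 of 10, up to 316-fold for *Wif1*, with sums of 69.5 and 9.17. With vehicle 0 of these 16 genes passed 2-fold, where 1.91% of all genes were higher and 1.32% lower. Paneth cell markers were lower for 8 of 8, led by *Mmp7* (at least 1186-fold) and including *Ang4*, also a defence gene, with sums of 140.0 and 6.55, and with vehicle 1 of 6 was higher, *Defa3*. Goblet and deep crypt secretory markers were higher in *Pla2g3*-/- for 9 of 12 and lower for 1, *Dll4*, with sums of 140.0 and 646. Among them *Atoh1*, the factor that specifies secretory cells, was 8.73-fold higher, beside 5.26-fold for *Reg4*. In *Pla2g3*+/+, AOM over vehicle was lower for 10 of these 12, up to 22.2-fold for *Zg16*, beside 17.9-fold for *Reg4*. Other lists fell in that comparison too, smooth muscle for 6 of 6 genes, enteroendocrine for 9 of 10, colonocyte for 7 of 11 and small intestinal enterocyte for 6 of 10. Wnt targets were higher for 10 of 10 and Paneth markers for 6 of 8. Among all genes, 22.4% were lower and 15.1% higher. Colonocyte markers were higher for 8 of 11 in *Pla2g3*-/- after AOM. How far the makeup of the tissue set the values of *Reg3b*, *Reg3g* and *Reg4* was not tested.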

How the data were processed

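RNA from 4 pools of mouse colon, labelled with Cy3, was hybridized to the 4 whole-genome arrays of 1 slide, and groups were taken from the labels of the samples. The authors deposited spot intensities from Feature Extraction 11.5.1.1, which per the file headers were corrected for background and for spatial trends, with no scaling from array to array. A deposited p-value states whether a spot equals its background, and the software's own detection call was taken over. A further deposited table holds a ratio, the authors' intensity over the 75th percentile of its array, which was checked against each array.

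Controls and outlier-marked spots were removed, spots of one probe were averaged as log2 intensities into 39423 features, and log2 of the 75th percentile over all spots other than controls was subtracted. Where a feature was dim on 1 array, its side took the dimmest detected signal of that array, or its own signal if higher. Replicate spots of one probe had a median SD of 0.06 to 0.07 on the log2 scale, and the number of arrays limits the precision. Lists used the brightest probe of each gene. With 1 array per group no test was made. The ratio code was tested on simulated data.

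The members and the 14 gene lists were chosen with earlier results of these data known. Named genes were all members, the receptor, a fixed set of IL-22 pathway genes, and the largest rise and fall per list and comparison. Also named were the 3 nearest profiles of each member well above background on all 4 arrays, and named neighbours on the chromosome. The largest rise and fall were not printed for every list and comparison. *Ptf1a* and *Bhlha15* were named after their values were seen. A gene that this rule would name is not reported here. Alternatives were other scalings, normexp background correction followed by quantile normalization, other treatments of dim signals, thresholds of 1.5-fold and 4-fold, 1 probe per gene and the deposited table. Normexp started from mean spot and median background intensities, with an offset of 50 (limma 3.58.1, R 4.3.3). Python 3.11.15, pandas 2.3.3, numpy 2.4.6, Biopython 1.88 and matplotlib 3.10.9 were used. Names came from a RefSeq table (GRCm38.p6), which matched 31326 features.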

Additional observations from a re-analysis of the deposited data

Results flagged for a closer look

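The genotype ratio of *Reg3b* and of *Reg3g* changed sign between the treatments, which is why both are listed here. For *Reg3b* the log2 ratio of *Pla2g3*-/- over *Pla2g3*+/+ was 3.28 with vehicle and -3.00 after AOM, a difference of -6.29. For *Reg3g* it was 3.78 and -4.89, a difference of -8.67. With 1 array per group the difference was not tested.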

How the results depend on the processing

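No paired analysis was possible because each group has 1 array. Over 11 alternatives, the counts of members past 2-fold stayed within 1.5 times of those reported, except that AOM over vehicle in *Pla2g3*+/+ gave 2 instead of 4 after normexp with quantile normalization and 2 when only features well above background on both arrays were used, a setting that gave 4 instead of 7 in *Pla2g3*-/-, since dim members then have no ratio. No called ratio of a member changed direction in any alternative. Of 186 member ratios under alternatives, 180 kept their side of 2-fold and 6 fell within it (*Reg1* and *Reg3a* in AOM over vehicle of *Pla2g3*+/+, *Reg3a* and *Reg3d* in that of *Pla2g3*-/-). Part of this was fixed in advance, so that these counts overstate how stable the ratios are. The deposited table holds the same scaled signals. Settings for dim signals left member ratios unchanged where both arrays were well above background. With 1 feature per member, 1 probe per gene could not change a member count. Over all settings, *Reg3b* ranged from 3.14 to 3.34 with vehicle and from -3.17 to -2.67 after AOM, *Reg3g* from 3.44 to 3.83 and from -5.05 to -3.84, and *Reg4* from 2.23 to 2.47 after AOM (log2 ratios of *Pla2g3*-/- over *Pla2g3*+/+), while *Reg1* ranged from 2.35 to 3.97 and *Reg2* from 2.91 to 5.82 with vehicle. AOM over vehicle of *Pla2g3*-/- ranged from -7.41 to -2.63 for *Reg1*, from -7.71 to -2.88 for *Reg2*, from -9.67 to -8.68 for *Reg3b*, from -9.51 to -7.82 for *Reg3g* and from -1.89 to -1.04 for *Reg4*, and that of *Pla2g3*+/+ from -3.40 to -2.36 for *Reg3b* and from -4.19 to -3.15 for *Reg4*. Leaving out the scaling shifted the median of all features by 1.05 in AOM over vehicle of *Pla2g3*+/+, by 0.83 in that of *Pla2g3*-/- and by -0.16 in the genotype ratio after AOM. Signal over background limits *Reg1*, *Reg2* and *Reg3a* after AOM, which have ratios with a dim signal or no ratio there.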

Other observations

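Of the lists not described above, enteroendocrine markers were within 2-fold for 10 of 10 genes with vehicle, and after AOM 7 of 10 were higher in *Pla2g3*-/- and 1 was lower, from *Gcg*, the proglucagon gene, at 21.6-fold higher to *Pyy*, the gene of peptide YY, at 2.49-fold lower. Small intestinal enterocyte genes were higher in *Pla2g3*-/- for 2 of 10 with vehicle, led by *Fabp1* at 3.64-fold, lower for 1, *Sis* at 4.99-fold, and higher for 6 of 9 after AOM. Of the neutrophil markers, 1 of 6 was higher in *Pla2g3*-/- with vehicle, *Retnlg* at 2.23-fold, and after AOM 2 of 8 were higher and 3 lower, from *Ltf*, the lactoferrin gene, at 27.4-fold higher to *Retnlg* at 48.7-fold lower. Beside these counts, 1.91% of all genes were higher and 1.32% lower in *Pla2g3*-/- with vehicle, and 15.1% and 12.9% after AOM.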
